A study of Mus musculus with 4 samples.

Results

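The genes described here are the 43 collagen genes of the mouse lung, taken as every gene whose symbol in the deposited gene lists had the form Col, a number, a and a number (Col1a1, Col4a3). They were 43 of 30028 genes listed over the 4 libraries, and between 37 and 39 of them were listed in each library. By the type of collagen they were 11 fibrillar genes, 8 basement membrane genes and 24 others. All 43 had a gene model of that name in GENCODE vM21 on GRCm38. Collagen genes were neither used to cluster the cells nor held in the marker lists that name the classes, but those lists and the cell filters were revised with collagen levels by class in view.

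Collagens are secreted proteins in which 3 chains wind into a helix. Fibrillar collagens (types I, II, III, V, XI, XXIV and XXVII) assemble into the fibres that give the lung its tensile strength and are made mainly by fibroblasts. Basement membrane collagens, above all type IV, form the sheet on which epithelial and endothelial cells rest, and in the alveolus they stand between air and blood. The remaining collagens bind to fibrils, form beaded filaments or short networks, anchor epithelia or span the cell membrane. Collagen deposition around small arteries is a known feature of pulmonary hypertension.

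Lung cells came from mice aged 11 weeks in 4 groups that cross genotype with treatment. NW denotes wild-type mice in normoxia and NK FUNDC1 knockout mice in normoxia, both given vehicle. HSW denotes wild-type mice and HSK FUNDC1 knockout mice under HySu, which combines hypoxia with SU5416, a blocker of VEGF receptors dosed weekly 3 times, and serves as a mouse model of pulmonary hypertension. Whether the knockout was limited to a cell type is not stated in the labels. Each group was 1 library made from the pooled cells of 5 mice, so the variation between mice was not measured and no test between groups could be made. Square brackets below hold 95% intervals that cover counting error only. Where 4 values follow one another, they are for NW, NK, HSW and HSK in that order.

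The deposited libraries held 41308071 to 63501686 UMIs (unique molecular identifiers, each marking 1 captured RNA molecule). Once cells of mixed lineage had been taken out, 6270, 7049, 4260 and 3731 remained, with a median of 6184, 5253, 7124.5 and 7809 UMIs. The smallest cells in the 4 matrices had 3775, 3182, 4230 and 4726 UMIs, so the matrices had been trimmed at different depths. Between 20 and 70 cell barcodes were shared by any pair of libraries. Cells fell into 16 named classes, among them 770 fibroblasts, 625 vascular endothelial cells, 99 alveolar type 1 cells, 4501 alveolar type 2 cells and 4930 alveolar macrophages, and 1187 cells stayed unnamed. Fundc1 was at most 1.87 CPM (a gene's UMIs over all UMIs of the cell class, on the counts-per-million scale) in both knockout libraries in each of the 16 classes, against 33.4 CPM in NW and 49.2 CPM in HSW in fibroblasts.

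Collagens accounted for 94815 of 173887428 UMIs, with 45133 from fibrillar, 26694 from basement membrane and 22988 from other collagens. Among the 43 genes, 15 had at least 1000 UMIs, 12 had 100 to 999, 11 had 3 to 99, and 5 had at most 2 (Col2a1, Col6a4, Col9a1, Col11a1 and Col19a1). The most counted chains were Col1a2 with 17595 UMIs, Col3a1 with 14344, Col4a1 with 13587 and Col1a1 with 9258. Because each molecule is counted once at its polyadenylated end, UMIs and CPM were not divided by gene length.

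The 3 kinds of collagen were counted in different cells. Fibroblasts held 83.9 to 91.3% of fibrillar UMIs over the 4 libraries and 54.8 to 61.0% of the UMIs of other collagens. Basement membrane UMIs were spread over alveolar type 2 cells (28.3 to 41.0%), vascular endothelial cells (8.47 to 33.9%), fibroblasts (15.3 to 23.6%) and alveolar type 1 cells (3.47 to 10.0%). These shares depend on how many cells of a class each library captured.

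**Figure D1:**
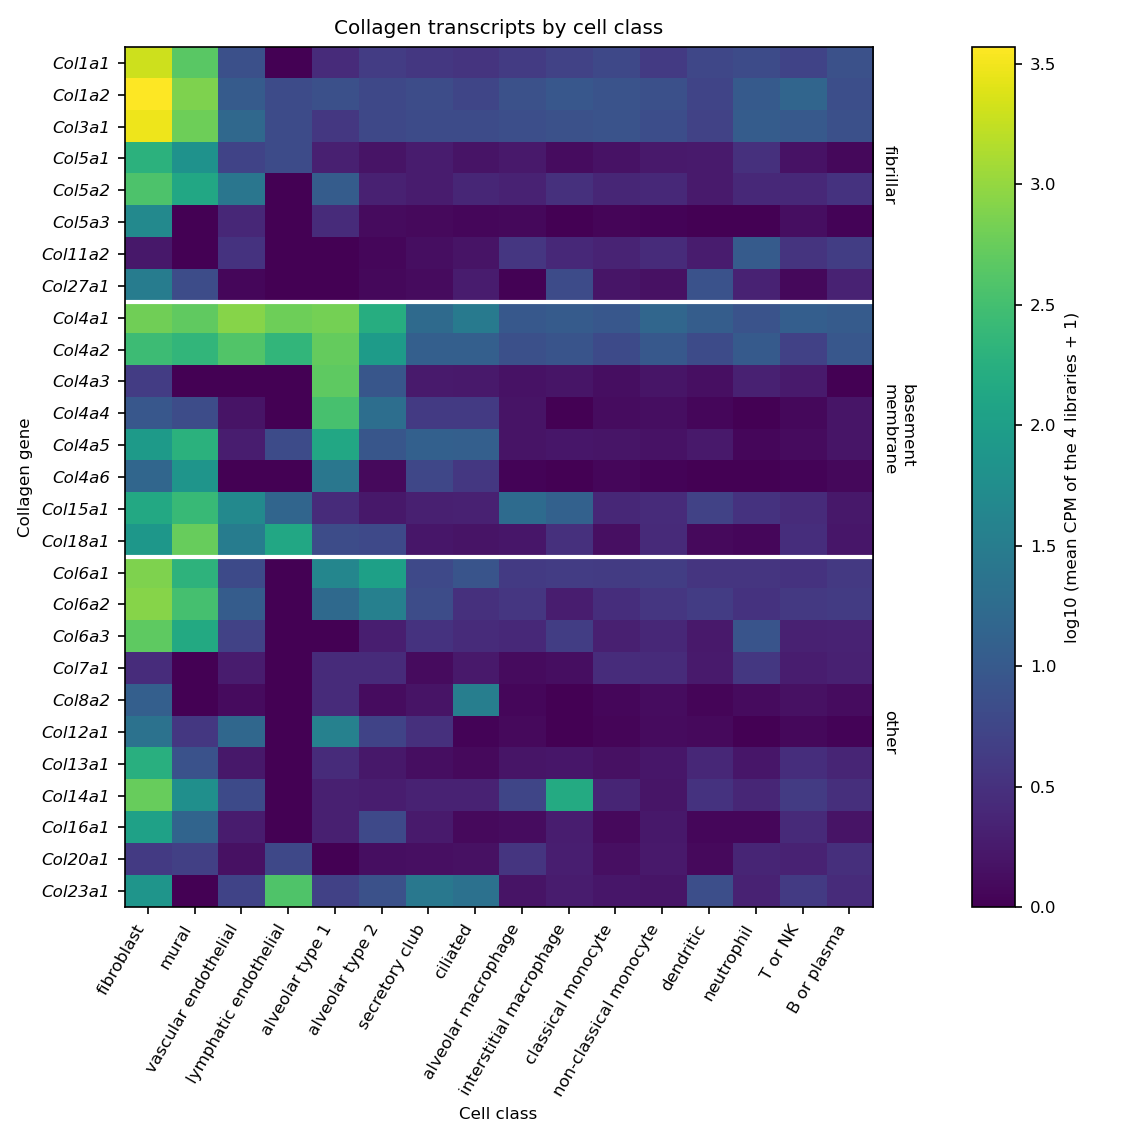
Heat map of the mean level of 27 collagens with at least 100 UMIs (rows, grouped by type) in 16 cell classes (columns), as log10 of CPM plus 1 over the 4 libraries. Col1a1, Col1a2, Col3a1 and Col5a2 are high in fibroblasts and, at a lower level, mural cells, while Col4a1 and Col4a2 are high across endothelium, alveolar epithelium and mesenchyme, and single other collagens light up in single classes.

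Fibrillar collagens were the collagens of the fibroblast. Type I collagen, the main fibre protein, is built from the chains of Col1a1 and Col1a2, and type III, which co-assembles with it in stretchable tissue, from Col3a1. In fibroblasts Col1a2 made up 27.2% of collagen UMIs on the mean of the 4 libraries, Col3a1 21.9% and Col1a1 14.4%. The summed level of these 3 genes was 7018 to 10407 CPM in fibroblasts. It was 1402 to 2478 CPM in mural cells (a cluster named from smooth muscle markers), or 17.3 to 23.8% of the fibroblast level. In each of the other 14 named classes it was below 1% of that level in every library, with the highest value, 58.7 CPM or 0.720%, in NW vascular endothelial cells. Free RNA, the RNA of broken cells that enters every droplet or well, can give counts at such levels. In T or NK cells Col1a2 was 31.3, 36.8 and 35.3% of the 3 genes' UMIs in NW, NK and HSW. In HSK it was 78.9% [54.4, 93.9], on 19 UMIs, the highest share of any class and library. Fibroblasts of HSK had 40.0% [39.1, 41.0]. The part of free RNA in these counts was not tested.

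Near the starts of Col1a2 and Col3a1, the most counted fibrillar genes, the reference sequence differed in the short motifs it held. The stretches shown are of unlike length, 123 bases for Col1a2 and 250 for Col3a1. The stretches below are from RefSeq on GRCm38.p6, plus strand. Capitals mark matches on either strand to 4 motifs. They are the GC box, GGGCGG, and the TATA box, read as TATAAA. The others are a SMAD-type element with the letters CAGAC and, known from genes that respond to hypoxia, the element ACGTG. The Col1a2 stretch is chr6:4505370-4505492, within 250 bases before the RefSeq start at 4505618 and without the exon bases of an earlier GENCODE start, and the Col3a1 stretch is chr1:45311288-45311537, ending at its start at 45311538.
Col1a2: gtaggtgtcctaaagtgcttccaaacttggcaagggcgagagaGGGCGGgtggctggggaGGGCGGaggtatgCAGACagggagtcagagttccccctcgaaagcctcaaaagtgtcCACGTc
Col3a1: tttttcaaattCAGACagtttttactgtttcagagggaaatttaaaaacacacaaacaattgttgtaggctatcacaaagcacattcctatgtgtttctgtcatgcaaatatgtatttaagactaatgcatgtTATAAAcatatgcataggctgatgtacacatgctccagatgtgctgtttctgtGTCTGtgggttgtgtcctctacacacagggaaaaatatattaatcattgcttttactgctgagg
The Col1a2 stretch held 2 GC boxes, 205 to 200 and 188 to 183 bases before the start, and the Col3a1 stretch held no GC box but a TATA box 117 to 112 bases before. The part of Col1a2 left out held the letters CCAAT, 109 to 105 bases before the start. It also held a further ACGTG match on the opposite strand, 87 to 83 bases before. Neither CCAAT nor ACGTG was found in the 250 bases of Col3a1. A window of 250 bases before to 50 after the start was given for 34 of the 43 collagens, in 37 windows. Only the 250 bases before the start were searched for motifs. In that part, 59.46% of the collagen windows held a GC box, against 32.74% of all 32851 such windows. A TATA box was held by 10.81%, against 12.37%. CAGAC stood in 45.95% of collagen windows and 42.19% of all, ACGTG in 13.51 and 16.57%, and CCAAT (the CCAAT box) in 35.14 and 33.85%. A match is a description of the letters and not a measured binding site.

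For comparisons between libraries, a gene was called higher or lower where the pair had at least 20 UMIs, the ratio of CPM was at least 1.5-fold either way and its interval excluded 1. This is a rule of size within these libraries and not a test of the conditions. In fibroblasts, HSW against NW, 0 collagens were called higher and 6 lower of 23 with enough UMIs. Over all genes 28.3% were called either way, 4.81% higher and 23.5% lower. HSK against NK, 4 were called higher and 6 lower of 25, with 34.7% of all genes called, 6.56% higher and 28.2% lower. NK against NW, 1 was called higher and 1 lower of 24, with 10.6% of all genes called, 5.53% higher and 5.11% lower. HSK against HSW, 3 were higher and 1 lower of 22, with 7.67% of all genes called, 3.6% higher and 4.07% lower. The median log2 ratio of the collagens was -0.28, -0.16, 0.07 and 0.25 in these 4 comparisons, beside -0.33, -0.40, 0.02 and -0.02 over all genes. HSW and HSK were set against their own genotype's normoxia library, and the pairs NK against NW and HSK against HSW reuse the same 4 libraries.

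The HySu comparisons depended on the scaling. TMM scaling, which centres the bulk of the genes, added 0.33 (log2) to every HSW/NW ratio and 0.39 to every HSK/NK ratio in fibroblasts, and 0.04 or less either way to the other pairs. Under TMM the calls became 2 higher and 3 lower for HSW against NW (21.9% of all genes called) and 7 higher and 3 lower for HSK against NK (26.5%). Col1a1 and Col28a1 were then called higher in HSW, and Col1a2, Col4a2 and Col28a1 joined the genes called higher in HSK. Ratios below are of CPM unless TMM is named.

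Type I and III collagen chains were highest in fibroblasts of HSK and lowest in those of NK. Col1a1 stood at 1793, 1463, 2135 and 2537 CPM. The HSK level was 1.73-fold that of NK [1.63, 1.84], a called difference, and the HSW level 1.19-fold that of NW [1.12, 1.27], not called. Both HySu libraries lay above both normoxia libraries by more than the counting error.

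Col3a1 followed the same order, with 2755, 2366, 3176 and 3702 CPM. Its ratio was 1.56 [1.49, 1.64] for HSK against NK, called, and 1.15 [1.10, 1.21] for HSW against NW. With cells thinned to 4726 UMIs, or with the highest UMI minimum for all libraries, the HSK/NK ratios of Col1a1 and Col3a1 were 1.46 and 1.37 and no longer called. Col1a2 was more even, at 3602, 3189, 3914 and 4168 CPM, with ratios of 1.31 [1.25, 1.37] and 1.09 [1.04, 1.14]. The count of Col1a1 per Col1a2 was 0.50, 0.46, 0.55 and 0.61.

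Type V collagen, a minor component that sets the width of type I fibrils, did not move as 1 unit. Col5a2 had 365, 306, 375 and 465 CPM, and was called higher in HSK than NK at 1.52 [1.32, 1.75]. Col5a1 had 226, 218, 131 and 201 CPM, and HSW was the library that stood apart, at 0.580 of NW [0.464, 0.721] and with HSK at 1.54 of HSW [1.22, 1.94], both called. Col5a3 had 59.4, 62.6, 37.9 and 28.8 CPM, lower in both HySu libraries, at 0.639 of NW [0.414, 0.973] and 0.460 of NK [0.284, 0.721]. Under TMM the ratio of Col5a1 in HSW against NW was 0.731 and no longer called, and that of Col5a3 also lost its call. Col27a1, a fibrillar collagen of cartilage and developing tissue, had 45.4, 40.2, 10.3 and 24.4 CPM, and the 10 UMIs of HSW put it at 0.226 of NW [0.102, 0.451], with HSK at 2.38 of HSW [1.08, 5.62].

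**Figure D2:**
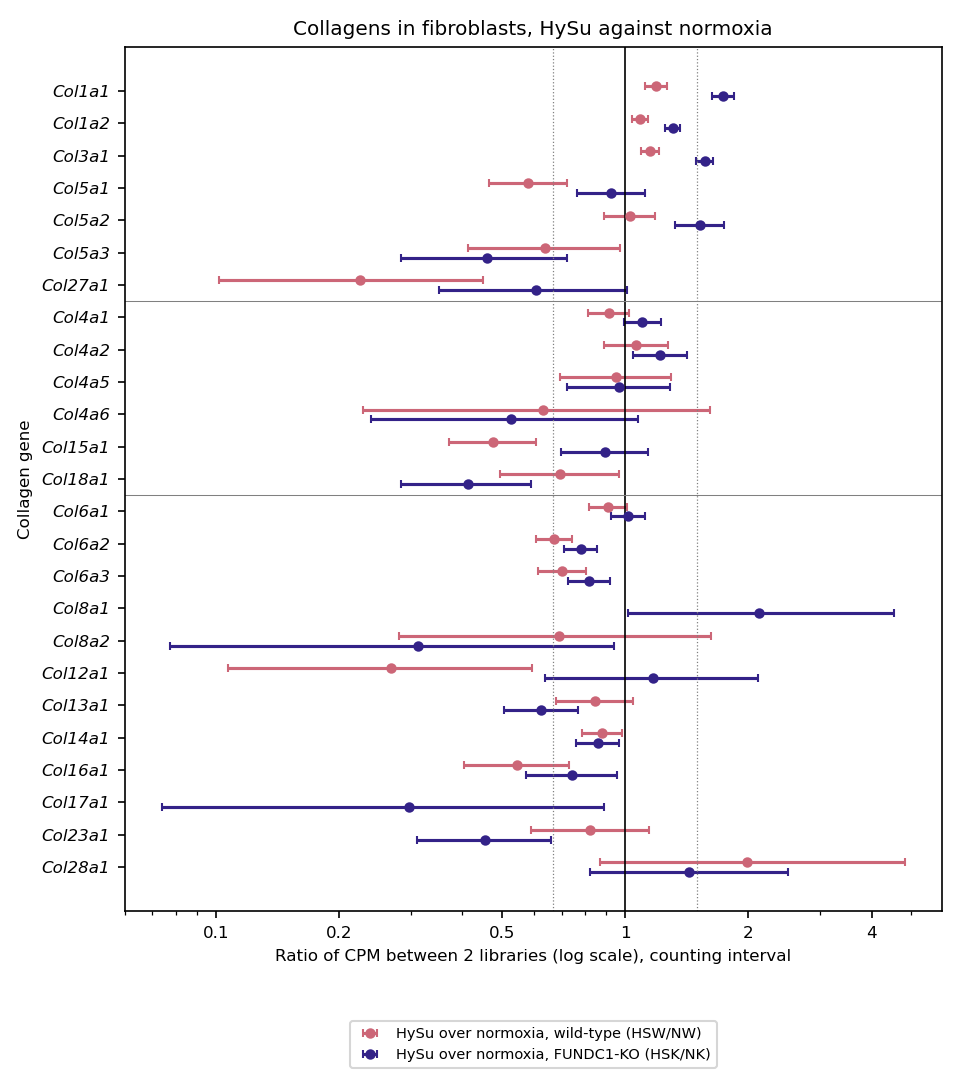
Ratios of CPM in fibroblasts on a log axis for HSW against NW and HSK against NK, 1 row per collagen with at least 20 UMIs in the pair, with 95% counting intervals, and dotted lines at 1.5-fold either way. Col1a1 (1.73), Col3a1 (1.56), Col5a2 (1.52) and Col8a1 (2.12) lie beyond the upper line for HSK against NK, and no collagen does so with an interval free of 1 for HSW against NW.

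Summed over the 11 fibrillar genes, fibroblasts held 8851, 7644, 9779 and 11129 CPM. The HySu ratio was 1.10 [1.07, 1.14] in wild type and 1.46 [1.42, 1.5] in knockout, and the knockout ratio was 0.864 [0.840, 0.888] in normoxia and 1.14 under HySu, again with an interval free of 1. On the log2 scale the HySu ratio in knockout exceeded that in wild type by 0.40 [0.34, 0.46] for the fibrillar sum, by 0.54 [0.42, 0.67] for Col1a1, by 0.44 [0.34, 0.54] for Col3a1 and by 0.27 [0.18, 0.36] for Col1a2. NK had the lowest level of the 4 libraries. With cells thinned to 4726 UMIs each, which leaves out 86, 179, 35 and 0 fibroblasts, the HSK/NK ratio of the sum was 1.29.

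The 2 kinds of fibroblast differed in which fibrillar level they held and in how the libraries compared. Adventitial-like fibroblasts (83, 102, 80 and 55 cells in NW, NK, HSW and HSK) were named after the cells of the cuff around vessels and airways, and alveolar-like fibroblasts (113, 179, 77 and 81 cells) after those of the alveolar wall. The split took whichever of these 2 marker lists was higher in a sub-cluster, each marker relative to its highest sub-cluster. It was clear for the sub-cluster led by Scara5 (0.93 adventitial, 0.1 alveolar) and for that led by Colq (1 alveolar, 0.23 adventitial). In the sub-cluster led by Adh7, placed with the adventitial-like cells at 0.45 against 0.3, and in that led by Thbs1, placed with the alveolar-like cells at 0.6 against 0.27, the myofibroblast list was higher than either, at 0.6 and 0.74. Neither of these, nor the Saa3 sub-cluster, had a marker of its kind among its leading genes. Col1a1 was 2411, 2010, 3236 and 4122 CPM in adventitial-like cells and 1296, 1140, 1043 and 1543 CPM in alveolar-like cells. HSK against NK was called in the adventitial-like cells, at 2.05 [1.89, 2.23], and not in the alveolar-like cells, at 1.35 [1.23, 1.49].

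Col3a1 repeated this, with 3246, 2910, 4103 and 5658 CPM in adventitial-like cells and a HSK/NK ratio of 1.94 [1.82, 2.08], and with 2361, 2046, 2256 and 2474 CPM and a ratio of 1.21 [1.13, 1.30] in alveolar-like cells. For HSW against NW the fibrillar sum was higher in adventitial-like cells at 1.21 [1.16, 1.25] and lower in alveolar-like cells at 0.855 [0.815, 0.897]. Of the collagens with enough UMIs, adventitial-like cells had 4 called higher (7.12% of all genes) and 6 lower (21.7%) of 19 for HSK against NK, and 0 higher and 2 lower (18.7%) of 18 for HSW against NW. Alveolar-like cells had 1 higher (6.91%) and 4 lower (26.4%) of 23 and 0 higher and 8 lower (21.3%) of 22 in the same comparisons. For NK against NW the calls were 0 of 19 in adventitial-like cells (10.9% of all genes) and 2 of 24, Col12a1 and Col15a1, both lower, in alveolar-like cells (4.81%). For HSK against HSW they were 2 higher (3.95%) and 1 lower (4.11%) of 19 in the former, and 5 higher (4.7%) and 1 lower (4.71%) of 21 in the latter. TMM scaling was not run for the 2 kinds of fibroblast.

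**Figure D3:**
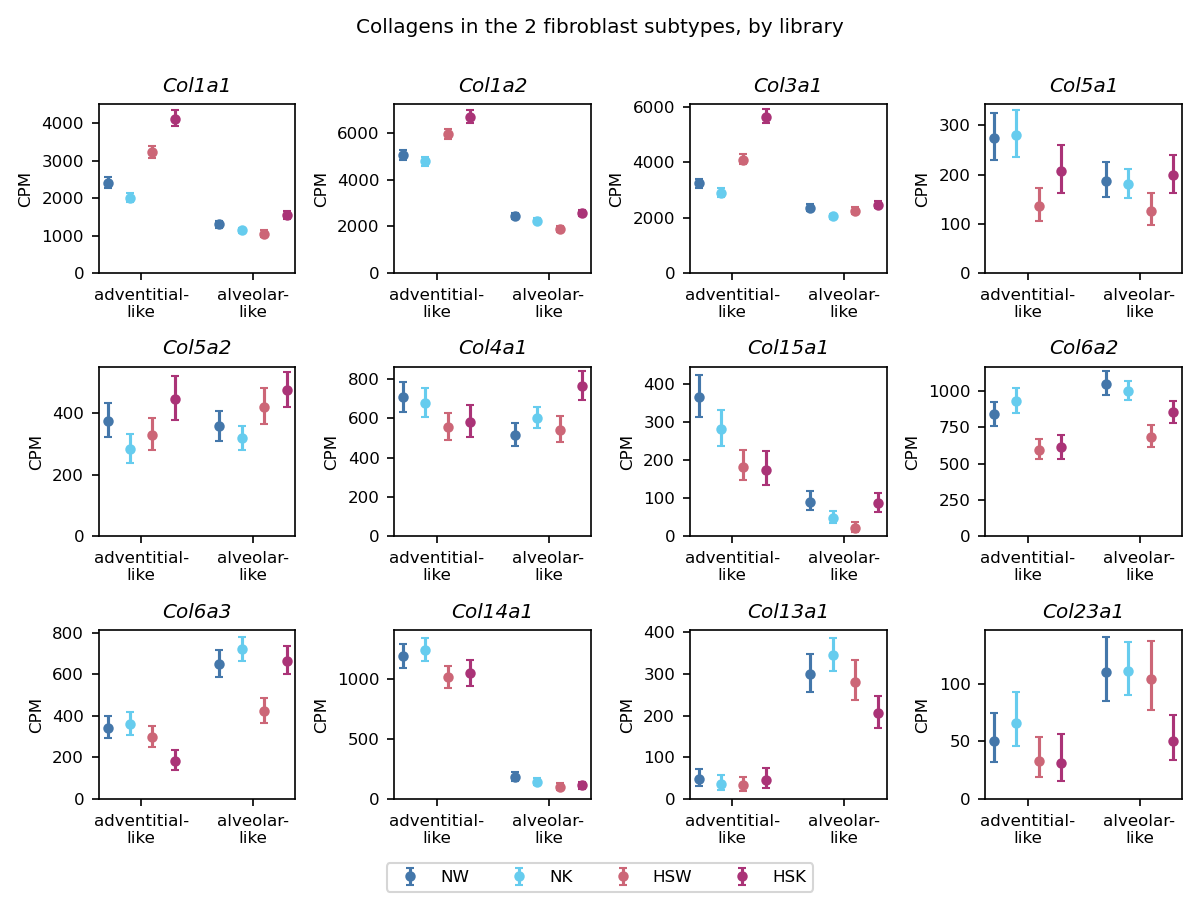
Levels in CPM of 12 collagens in adventitial-like and alveolar-like fibroblasts, 1 point per library with its 95% counting interval. Col1a1, Col3a1 and Col14a1 are higher in adventitial-like cells and Col13a1 and Col6a3 in alveolar-like cells in each library, and the adventitial-like Col1a1 of HSK (4122) is the highest of the 4 libraries.

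The fibroblast sub-clusters were unevenly filled by the libraries. Of the alveolar-like cells, the sub-cluster led by Saa3, Thbs4 and Mfap4 held 14 cells of NW, 5 of NK, 67 of HSW and 75 of HSK. Those led by Thbs1 and Tnc (50, 93, 7 and 4 cells) and by Colq and Slc7a10 (49, 81, 3 and 2 cells) held most normoxia cells, so that HySu and normoxia are compared across different sub-clusters. In adventitial-like cells the sub-cluster led by Scara5 and Pi16 held 61, 60, 62 and 45 cells, and that led by Adh7 and Lamc3 22, 42, 18 and 10. Pooled over libraries, Col1a1 was 3449 CPM in the Scara5 sub-cluster, 1260 in the Adh7, 1499 in the Saa3, 1252 in the Thbs1 and 837 in the Colq sub-cluster. Within the Scara5 sub-cluster alone, chosen after these scores were seen, Col1a1 was 2729, 2607, 3800 and 4737 CPM, with a HSK/NK ratio of 1.82 [1.66, 1.99] and a HSW/NW ratio of 1.39 [1.28, 1.51]. Its fibrillar sum was 1.51 [1.45, 1.58] for HSK against NK and 1.01 [0.970, 1.06] for NK against NW, where that of all fibroblasts was 0.864. With both fibroblast kinds weighted equally, the fibrillar ratio was 0.900 for NK against NW and 1.25 for HSK against HSW.

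Markers of other cells also differed between the fibroblast sums. The 8 smooth muscle markers, none at 0, summed to 427, 437.5, 94.3 and 184 CPM, the 8 myofibroblast markers to 1811, 1766, 1006 and 1221, the 8 interstitial macrophage markers to 1685, 1754, 4441 and 3085, and the 6 club cell markers to 6015, 2778, 3673 and 4505. The 10 adventitial markers summed to 33443, 32378, 29180 and 24925 CPM and the 10 alveolar fibroblast markers to 10052, 12900, 9950 and 8225. The part of these differences in the collagen ratios was not tested.

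Mural cells, which wrap vessels and airways, were few (18, 16, 13 and 14 cells), so their values are given without calls. Col1a1 was 285, 298, 583 and 625 CPM in NW, NK, HSW and HSK, and Col5a2 was 56.9, 29.8, 225 and 239 CPM. In both genes the 2 HySu libraries were above the 2 normoxia libraries, as they were for Col1a2 (603, 596, 927 and 921 CPM). Other fibrillar genes had another order. Col3a1 was 524, 507, 477 and 932 CPM, lowest in HSW, and Col5a1 was 114, 29.8, 39.7 and 79.6 CPM, highest in NW. The sub-cluster of mural cells led by Ltbp2, C3 and Upk3b held 1, 2, 9 and 14 cells, so it was unevenly filled between normoxia and HySu. Its leading genes included Mfap5, an adventitial fibroblast marker, and Upk3b, a mesothelial marker. Pooled over libraries, Col1a1 was 588 CPM in this sub-cluster and 324 in the other, and Col5a2 was 220 and 67.2. The part of this sub-cluster in the mural values was not tested.

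The basement membrane collagens comprised the 6 type IV chains together with Col15a1 and Col18a1, whose proteins sit in the basement membrane zone. Type IV chains join in fixed trios, the widespread one of 2 Col4a1 chains and 1 Col4a2 chain, and a second one, found in the alveolar and glomerular basement membrane, of Col4a3, Col4a4 and Col4a5. Col4a1 and Col4a2 lie head to head on chromosome 8 (chr8:11198423-11312826, minus strand, and chr8:11312805-11449287, plus strand), and the annotated starts at 11312826 and 11312805 overlap by 22 bases. The shared stretch, chr8:11312805-11312826 on the plus strand of GRCm38.p6, is shown because both genes start within it. Capitals mark a GC box at its bases 8 to 13.
Col4a1 and Col4a2 starts: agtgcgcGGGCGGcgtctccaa
Col4a1 was counted more than Col4a2 in these 4 classes, except in alveolar type 1 cells of NK. The count of Col4a1 per Col4a2 was 2.22, 2.27, 2.07 and 1.90 in vascular endothelial cells of NW, NK, HSW and HSK, and 2.56, 2.25, 2.20 and 2.04 in fibroblasts. It was 2.01, 1.68, 1.85 and 1.80 in alveolar type 2 cells and 1.5, 0.94, 1.16 and 1.41 in alveolar type 1 cells, so alveolar type 1 cells had the lowest ratio in each library.

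Which type IV chains a cell made set the classes apart. Col4a3, Col4a4 and Col4a5 together were 45.6, 47.0, 41.4 and 40.3% of the type IV UMIs of alveolar type 1 cells, the thin cells of gas exchange. In alveolar type 2 cells, which secrete surfactant, they were 11.2, 12.9, 10.5 and 12.4%. In vascular endothelial cells they were 0 of 538 UMIs in NW, which allows up to 0.683%, and at most 0.230% in the other libraries, and Col4a3 was at 0 UMIs in all 4. Fibroblasts had 9.94, 9.92, 11.0 and 8.41%, most of it Col4a5. Of all Col4a3 UMIs, 27.1 to 64.9% were in alveolar type 1 and 19.4 to 62.0% in alveolar type 2 cells, and of all Col4a4 UMIs 16.5 to 37.7% and 43.0 to 69.9%. Both chains were therefore counted mainly in the alveolar epithelium. The count of Col4a3 per Col4a4 was 1.42, 1.22, 2.15 and 0.88 in alveolar type 1 and 0.37, 0.40, 0.46 and 0.53 in alveolar type 2 cells.

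**Figure D4:**
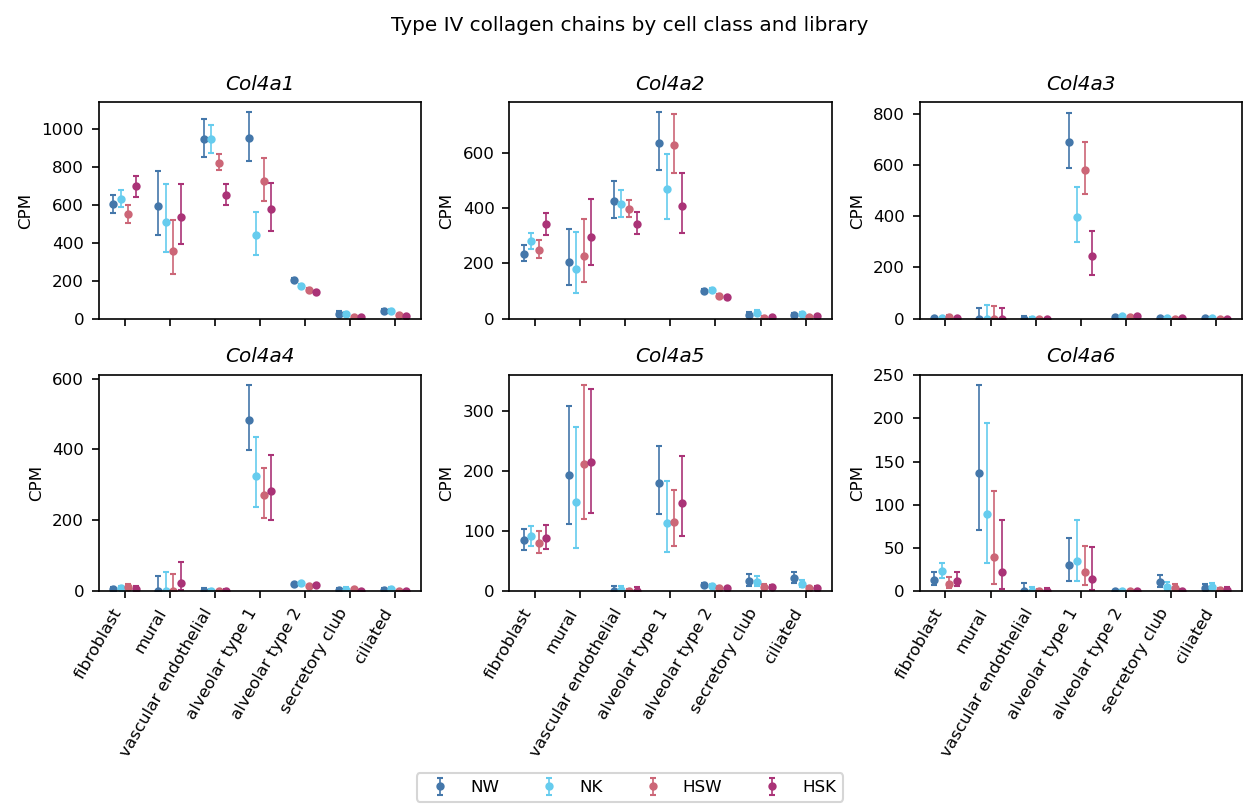
Levels in CPM of the 6 type IV chains in 7 cell classes, 1 point per library with its 95% counting interval. Col4a1 and Col4a2 are the main chains of vascular endothelial cells, fibroblasts and alveolar type 2 cells. Alveolar type 1 cells add Col4a3 (246 to 689 CPM) and Col4a4 (271 to 484 CPM), both below Col4a1 (439 to 951 CPM) in each library.

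Alveolar type 1 cells had the highest summed level of basement membrane collagens of all classes in NW, NK and HSW, from few cells (34, 22, 28 and 15). The sum was 2968, 1783, 2350 and 1688 CPM. NK was at 0.601 of NW [0.518, 0.695], and 2 of 6 collagens were called lower in that pair (7.49% of all genes), Col4a1 at 0.461 [0.342, 0.614] and Col4a3 at 0.575 [0.416, 0.783]. For HSW against NW 1 of 5 was called lower (15.7% of all genes), Col4a4 at 0.560 [0.403, 0.771], with 484 CPM in NW and 271 in HSW. HSK had under 20 cells and was not compared.

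Alveolar type 2 cells had lower levels in CPM but, being many, held the largest share of type IV UMIs in NW, NK and HSK (37.2, 33.0 and 44.4%), while in HSW vascular endothelial cells did (35.4% against 30.5%). Col4a1 was 202, 174, 152 and 140 CPM, and Col4a2 100, 104, 82.1 and 77.8. The basement membrane sum was lower under HySu in both genotypes, at 0.771 of NW [0.725, 0.820] and 0.775 of NK [0.731, 0.822], neither reaching 1.5-fold. The median gene of these cells was lower still, at a log2 ratio of -0.46 in HSW against NW and -0.61 in HSK against NK.

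Vascular endothelial cells gave 59, 152, 284 and 130 cells, and Col4a1 was the collagen they made most. It had 947, 943, 821 and 652 CPM, and a UMI of it was found in 89.8, 91.4, 96.1 and 94.6% of the cells, against 7.35 to 9.64% of alveolar macrophages, which are deeper. The 2 HySu libraries were below the 2 normoxia libraries, at 0.867 of NW [0.773, 0.974] and 0.692 of NK [0.617, 0.775], under the size for a call. Col4a2 had 426, 415, 397 and 344 CPM, with an interval that includes 1 for HSW against NW, 0.931 [0.785, 1.11]. Col18a1, the source of endostatin, had 28.1, 24.8, 33.9 and 35.5 CPM, and none of its 4 intervals excluded 1.

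The endothelial sub-clusters also differed between treatments. Those led by Ntrk2 (1, 1, 83 and 25 cells in NW, NK, HSW and HSK), by Ccdc184 (0, 1, 69 and 36) and by Ccl4 and Ifit3b (1, 1, 62 and 28) were made up of HySu cells almost alone. The sub-clusters led by Fibin and Ednrb (23, 52, 3 and 1 cells) and by Efnb2 and Gpihbp1 (10, 54, 4 and 0 cells) were mostly of normoxia. Pooled over libraries, Col4a1 was 769 to 975 CPM in the first 3, and 1178 and 1156 CPM in the latter pair. For HSK against NK, 3 sub-clusters had enough cells in both libraries. They were led by Slc6a2 (25 NK and 19 HSK cells), Top2a (9 and 13) and Sulf1 (9 and 8). Their pooled Col4a1 was 485, 672 and 377 CPM, and most cells of the class were outside them. Weighted equally, these sub-clusters gave a basement membrane ratio of 1.02. The whole class, which is a different set of cells, gave 0.741 [0.676, 0.811].

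Of 8 collagens with enough UMIs in these cells, 0 were called higher and 3 lower for HSW against NW, where 19% of all genes were called, 6.24% higher and 12.7% lower. For HSK against NK 1 of 5 was called, lower (28.8% of all genes, 9.66% higher and 19.2% lower). For NK against NW 3 of 7 were called, all lower (14.1%, 7.22% higher and 6.91% lower), and for HSK against HSW 0 of 7 (7.95%, 3.5% higher and 4.44% lower). Col15a1 had 91.9, 40.9, 33.9 and 21.8 CPM. It was called in 3 pairs, at 0.369 [0.241, 0.574] for HSW against NW, 0.532 [0.281, 0.987] for HSK against NK and 0.445 [0.262, 0.751] for NK against NW. The HSK/NK value lost its call under TMM. Over only the 3 sub-clusters led by Slc6a2, Top2a and Sulf1, weighted equally, it was 1.11, on the other side of 1. No interval was made for that value. NW was thus the library apart, and it was so for Col3a1 (35.7, 8.77, 6.68 and 9.17 CPM) and Col12a1 (35.7, 11.7, 5.01 and 5.73 CPM) as well, each on 14 UMIs in NW. In the same NW cells the 10 alveolar macrophage markers summed to 1761 CPM against 257 to 468 in the other libraries, the 8 interstitial macrophage markers to 447 against 67.3 to 162, the 6 platelet markers to 442 against 9.17 to 11.7, and the 7 mesothelial markers, 4 of them at 0 in all libraries, to 76.6 against 5.01 to 6.87. None of the macrophage or platelet markers was at 0 throughout, and the part of these markers in the NW values was not tested.

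In fibroblasts the basement membrane sum was 1246, 1279, 1069 and 1310 CPM, and its HySu ratio was 0.858 [0.791, 0.931] in wild type, which TMM turned to 1.08, and 1.02 [0.950, 1.10] in knockout. Col4a1 (601, 631, 548 and 695 CPM) and Col4a2 (235, 280, 249 and 341 CPM) were both highest in HSK, where Col4a2 was 1.37 of HSW [1.15, 1.63]. Col15a1 had 213, 135, 101 and 121 CPM, highest in NW, with called ratios of 0.476 [0.372, 0.605] for HSW against NW and 0.632 [0.518, 0.772] for NK against NW. Col18a1 had 90.0, 107, 62.5 and 44.3 CPM, and HSK was at 0.413 of NK [0.283, 0.589]. Col17a1, listed with the other collagens as a hemidesmosome protein of epithelia, had 4 to 20 UMIs a library and was called lower for HSK against NK at 0.297 [0.0738, 0.887], a call that TMM removed.

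Alveolar-like fibroblasts parted from adventitial-like ones in Col15a1. They held 90.3, 48.6, 20.4 and 86.5 CPM, on 54, 41, 10 and 48 UMIs. HSW was low, at 0.226 of NW [0.103, 0.448], while HSK was at 1.78 of NK [1.15, 2.77] and 4.24 of HSW [2.12, 9.39]. Adventitial-like cells had 366, 281, 183 and 175 CPM, with both HySu libraries lower, at 0.500 of NW [0.383, 0.649] and 0.623 of NK [0.453, 0.847].

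Mural cells had the highest Col18a1 of all classes, at 398, 447, 715 and 602 CPM, and Col15a1 at 467, 239, 225 and 90.9 CPM, highest in NW as in the endothelium and the fibroblasts. Lymphatic endothelial cells (7, 8, 8 and 4 cells) had 807, 730, 422 and 475 CPM of Col4a1.

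The other collagens summed to 3314, 3459, 2591 and 2890 CPM in fibroblasts. HSW was at 0.782 of NW [0.743, 0.823] and 0.986 under TMM, and HSK at 0.836 of NK [0.796, 0.877], which TMM turned to 1.10. Among them type VI, which forms beaded filaments around cells, was shared between fibroblasts and alveolar type 2 cells. Fibroblasts held 52.6 to 64.9% of its UMIs and alveolar type 2 cells 18.3 to 39.6%. The 2 classes made different chains. In fibroblasts Col6a1 had 736, 783, 669 and 796 CPM, Col6a2 957, 977, 641 and 761, and Col6a3 513, 587, 360 and 479. In alveolar type 2 cells Col6a1 had 101, 103, 109 and 110 CPM and Col6a2 33.0, 32.9, 34.6 and 39.7, but Col6a3 only 1.53, 1.69, 0.416 and 0.325.

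Col6a1 was found in a larger share of alveolar type 2 cells than of alveolar macrophages. A UMI of Col6a1 was found in 37.5, 31.5, 45.6 and 46.7% of alveolar type 2 cells (median 5643.5, 4616, 7062 and 7085 UMIs), against 1.93 to 4.29% of alveolar macrophages, whose median was 9050 to 11876 UMIs. At 4726 UMIs per cell, the alveolar type 2 shares were 32.0, 32.1, 35.6 and 35.4%, with 294, 682, 96 and 0 cells left out. The count of Col6a1 per Col6a2 was 2.78 to 3.16 in alveolar type 2 cells and 0.77 to 1.05 in fibroblasts. Free RNA was not measured, and its part in these counts was not tested. The level of Col6a1 in alveolar type 2 cells was near even across libraries, with ratios of 1.08 [0.977, 1.21] in wild type and 1.07 [0.973, 1.19] in knockout for HySu against normoxia.

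In fibroblasts the type VI sum was lower in HSW than in NW, at 0.759 [0.712, 0.809], and in HSK than in NK, at 0.866 [0.817, 0.917], the latter on the other side of 1 under TMM. The lower levels were those of Col6a2, at 0.669 of NW [0.605, 0.740] in HSW, and Col6a3, at 0.702 of NW [0.612, 0.803], neither reaching the size for a call. In HSK, Col6a3 was 1.33 of HSW [1.15, 1.54]. The count of Col6a1 per Col6a2 was 0.77 and 0.80 in normoxia and 1.04 and 1.05 under HySu.

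Among fibril-associated collagens, which coat fibrils and link them to the matrix, Col14a1 was higher in adventitial-like cells. It had 1189, 1243, 1015 and 1048 CPM in adventitial-like cells and 186, 143, 100 and 114 CPM in alveolar-like cells. Col12a1 was the other way round, with 4.16, 8.03, 2.06 and 5.74 CPM in adventitial-like and 51.8, 28.4, 14.3 and 36.0 CPM in alveolar-like cells. Col16a1 had 132, 139, 71.8 and 103 CPM over all fibroblasts and was called lower in HSW than in NW, at 0.545 [0.403, 0.730], a call that TMM removed. Col12a1 had 30.6, 20.9, 8.20 and 24.4 CPM, with HSW low at 0.268 of NW [0.107, 0.592] and HSK at 2.97 of HSW [1.27, 7.72]. These HSW values rest on 8 UMIs.

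Of the transmembrane collagens, Col13a1 and Col23a1 were higher in alveolar-like cells. Col13a1, a membrane collagen at adhesion sites, had 299, 345, 282 and 205 CPM in alveolar-like cells and 47.9, 36.1, 32.9 and 45.9 CPM in adventitial-like cells. Over all fibroblasts it was called lower in HSK than in NK at 0.625 [0.505, 0.769], a call that TMM removed with a ratio of 0.820. Col23a1 had 83.5, 94.7, 68.7 and 43.2 CPM and was lowest in HSK, at 0.456 of NK [0.310, 0.658] and 0.629 of HSW [0.412, 0.947]. Its levels were 49.98, 66.3, 32.9 and 31.6 CPM in adventitial-like and 110, 111, 104 and 50.5 CPM in alveolar-like cells, with overlapping intervals in NK and HSK.

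Among short-chain collagens, Col8a1, which is known from the walls of injured vessels, had 0, 14, 10 and 20 UMIs in fibroblasts. With NW set to the floor of 3 counts, HSW was 3.68-fold and NK 3.75-fold the level of NW. These 2 values leave out the counting error of HSW and NK, and both pairs were under the 20 UMIs needed for a call. HSK was 2.12-fold NK [1.02, 4.54], called. All 20 HSK and all 10 HSW UMIs of fibroblasts were in adventitial-like cells, as were 10 of the 14 of NK. Mural cells, few in each library, had 0, 0, 5 and 13 UMIs of Col8a1, or 66.2 CPM in HSW and 148 CPM in HSK. Col8a2 had 14.8, 14.2, 10.3 and 4.43 CPM in fibroblasts and was called lower for HSK against NK on 4 UMIs in HSK, at 0.313 [0.0774, 0.941], a call that TMM removed. Col28a1, a collagen of peripheral nerve, had 9.27, 21.6, 18.5 and 31.0 CPM and was called higher in NK than in NW, at 2.33 [1.10, 5.36].

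Several other collagens were counted also outside the mesenchyme. Interstitial macrophages, the macrophages of the lung wall, had Col14a1 as 63.7% of their own collagen UMIs. Of all Col14a1 UMIs they held 6.83 to 15.8%, and fibroblasts 62.3 to 79.0%. In these macrophages Col14a1 stood at 216, 234, 105 and 44.1 CPM. Both HySu libraries were lower, at 0.484 of NW [0.371, 0.628] and 0.188 of NK [0.128, 0.269], and HSK was at 0.421 of HSW [0.280, 0.622]. It was the 1 collagen with enough UMIs in these 3 pairs, and 29.7, 37.3 and 7.52% of all genes were called lower there.

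A Col14a1 UMI was found in 43.8, 47.8, 37.7 and 22.9% of interstitial macrophages, at a median of 5768, 5018.5, 6001.5 and 6700 UMIs per cell, against 0 to 1.23% of classical monocytes at 4475 to 6495. At 4726 UMIs per cell, with 34, 56, 23 and 0 cells left out, the shares were 38.0, 41.2, 27.1 and 20.8%. Col1a2, the most counted collagen of fibroblasts, had a UMI in only 3.85 to 5.88% of the same macrophages, where fibroblasts had 59.2, 52.7, 61.8 and 59.6% for Col14a1 and 98.5 to 100% for Col1a2. In fibroblasts Col1a2 was thus found in more cells than Col14a1, and in interstitial macrophages in fewer. On the log2 scale the HySu ratio of Col14a1 in knockout minus that in wild type was -1.36 [-1.99, -0.74]. For NK against NW 0 of 2 collagens were called (18.8% of all genes).

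**Figure D5:**
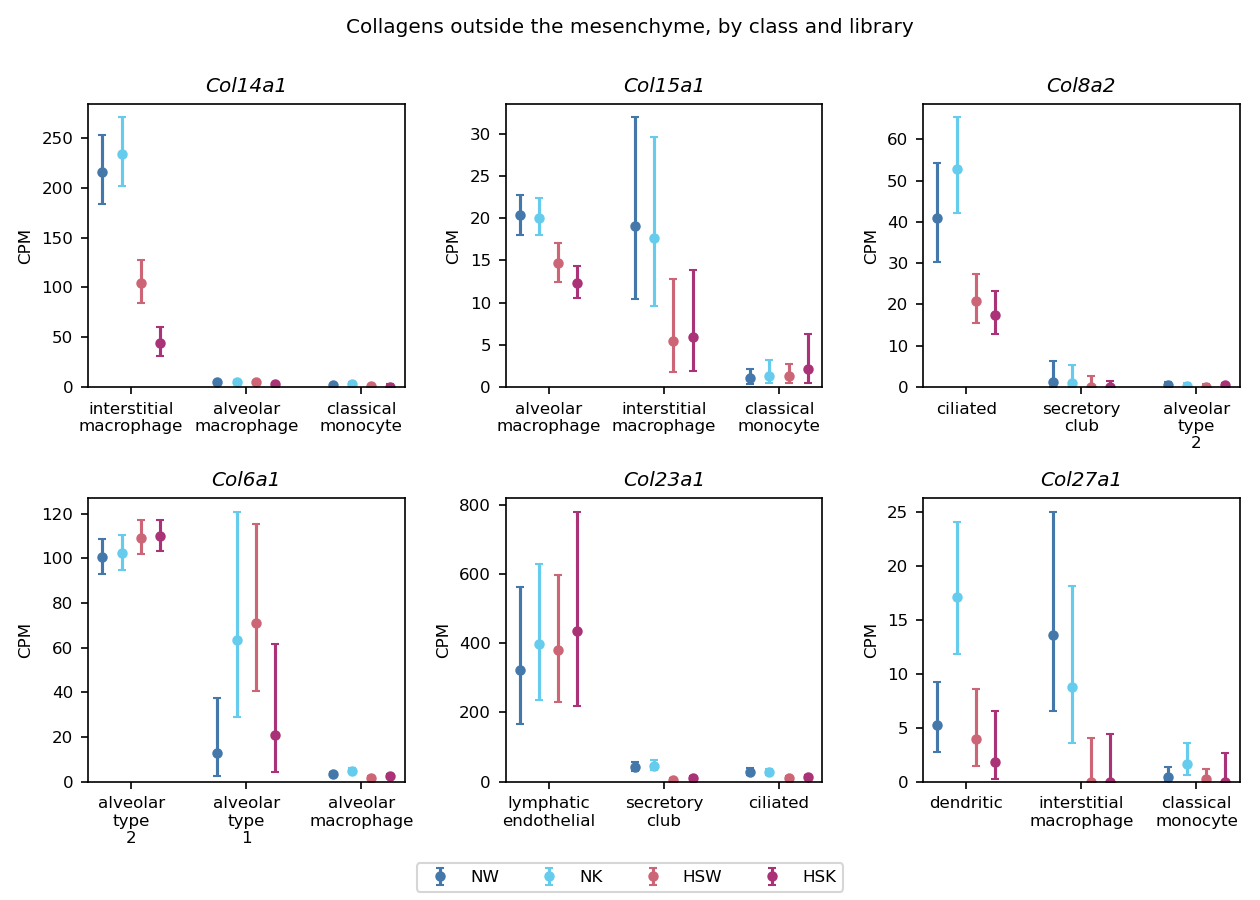
Levels in CPM of 6 collagens in 3 cell classes each, 1 point per library with its 95% counting interval. Col14a1 of interstitial macrophages (216, 234, 105 and 44.1 CPM) and Col8a2 of ciliated cells (41.0, 52.8, 20.8 and 17.6 CPM) stand above the other classes shown and are lower in both HySu libraries.

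Col15a1 was counted more in alveolar macrophages, which clear the air spaces, than in fibroblasts, since these cells were many: 40.6 to 51.2% of its UMIs were theirs. Its level was 20.3, 20.1, 14.6 and 12.3 CPM, and HSK was at 0.615 of NK [0.510, 0.741]. A UMI was found in 14.3, 12.1, 11.6 and 9.10% of alveolar macrophages against 0.593 to 1.51% of classical monocytes, and in 7.63, 7.33, 5.32 and 4.83% at 4726 UMIs per cell. In these cells 10 of 18 collagens were called for HSK against NK, 9 lower (26.1% of all genes) and 1 higher (5.78%), and 4 of 14, all lower, for HSW against NW (14.7%). NK against NW, 5 of 17 were called higher (6.6%) and 1 lower (2.99%), and HSK against HSW, 2 of 13 higher (3.68%) and 1 lower (2.65%).

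Besides Col15a1, those lower in HSK than NK were Col1a2, Col4a1, Col6a1, Col6a2, Col6a3, Col11a2, Col13a1 and Col14a1, at 1.19 to 11.3 CPM in NK. Col1a2, at 5.67, 11.1, 4.00 and 5.71 CPM, was called higher in NK than in NW, with Col1a1, Col4a1, Col4a5 and Col6a2. Col11a2, a fibrillar chain of cartilage, and Col20a1, a fibril-associated collagen, had 34.5 to 75.0% and 40.9 to 87.0% of their UMIs in alveolar macrophages. This class held the most UMIs of any class, at 14470998, 16748342, 10994616 and 14175206 of 173887428 over all kept cells. In CPM, Col11a2 was not highest there. Neutrophils had 5.03, 9.11, 24.8 and 0 CPM, on 8, 9, 12 and 0 UMIs, and T or NK cells 3.74, 5.36, 0.767 and 0 CPM. In alveolar macrophages Col11a2 was at 3.32, 4.36, 1.82 and 1.27 CPM, lower in both HySu libraries. Col20a1 was there at 2.63, 1.55, 3.00 and 2.82 CPM, lowest in NK.

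Ciliated cells, which move mucus, were the source of Col8a2, with 62.3 to 83.9% of its UMIs. Its level was 41.0, 52.8, 20.8 and 17.6 CPM, and it was lower in HSW at 0.508 of NW [0.335, 0.771] and in HSK at 0.333 of NK [0.228, 0.481]. A UMI was found in 47.2, 37.1, 32.2 and 29.8% of ciliated cells and 0.104 to 0.333% of alveolar type 2 cells, and in 29.8, 22.0, 15.5 and 13.2% of ciliated cells at 4726 UMIs each. Over all collagens, 4 of 6 were called lower for HSW against NW, as were 5 of 8 for HSK against NK, where 52.4 and 73.2% of all genes were called lower and the median log2 ratio of all genes was -0.85 and -1.20. The ciliated collagens were thus lower in a class in which most genes were lower in CPM. For NK against NW 1 of 6 was called lower (1.86% of all genes), Col4a5 at 0.531 [0.278, 0.998], and for HSK against HSW 0 of 8 (7.26%).

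Col23a1, a transmembrane collagen, was the most counted collagen of club cells, which line the small airways, in NW, NK and HSK but not in HSW, with 41.9, 46.2, 5.64 and 10.3 CPM. HSW was at 0.135 of NW [0.0542, 0.294] and HSK at 0.222 of NK [0.131, 0.368], below the median gene of these cells, which was at -1.04 and -1.34 on the log2 scale. In club cells 3 of 3 collagens were called lower for HSW against NW (58.6% of all genes) and 4 of 6 for HSK against NK (70.5%), with 0 of 4 for NK against NW (17.3%) and 0 of 5 for HSK against HSW (11%). Besides Col23a1 these were Col4a1 and Col4a5 in both pairs and Col4a2 in HSK against NK. Col23a1 was also high in lymphatic endothelial cells, at 323, 398, 382 and 436 CPM, where the 4 libraries did not differ beyond counting error.

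In alveolar type 2 cells, 3 of 14 collagens were called lower for HSW against NW (33.3% of all genes) and 6 of 15 for HSK against NK (47.5%). Col1a2, Col4a5 and Col23a1 were called in both, and Col7a1, Col12a1 and Col16a1 in the latter. Col4a5 was at 11.2, 9.07, 5.96 and 5.63 CPM, and Col23a1 at 8.59, 8.45, 4.99 and 5.20. Col12a1 was at 5.83, 5.69, 3.60 and 1.73 CPM, lower in HSK at 0.305 of NK [0.158, 0.562]. NK against NW, 3 of 16 were called higher (6.12%), and HSK against HSW, 2 of 14 higher (2.19%) and 2 lower (2.61%), the latter Col12a1 and Col16a1. Col1a2 and Col3a1 were higher in both of these pairs, at 2.08 to 8.76 CPM, and Col18a1 was higher in NK than in NW at 1.88 [1.14, 3.20].

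Of all Col27a1 UMIs, fibroblasts held 44.3 to 91.7% and dendritic cells 8.33 to 31.6%. Dendritic cells had Col27a1 at 5.28, 17.1, 3.94 and 1.82 CPM, on 12, 33, 6 and 2 UMIs. NK was high, at 3.25 of NW [1.63, 6.90], and HSK was at 0.106 of NK [0.0123, 0.415]. For NK against NW 2 of 8 collagens were called higher (9.77% of all genes), Col27a1 and Col4a1, the latter at 2.01 [1.07, 3.91]. For HSK against NK 1 of 4 was called lower (40.6%), and for HSW against NW 0 of 2 (33.3%) and HSK against HSW 0 of 1 (13.5%) were called either way.

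The genes that modify, fold, cut, link and bind collagens were read in fibroblasts as lists. Every list count in fibroblasts is to be read against 4.81% of all genes called higher and 23.5% lower for HSW against NW, and 6.56% and 28.2% for HSK against NK. The list counts and ratios are of CPM, and TMM calls were not made for these lists. In fibroblasts TMM adds 0.33 (log2) to every HSW/NW ratio and 0.39 to every HSK/NK ratio, so some lower calls may depend on the scaling. Prolyl and lysyl hydroxylases and their partners, which stabilise the helix, had 0 called higher and 2 lower of 12 for HSW against NW, with a median log2 ratio of -0.41, and 1 higher and 4 lower of 12 for HSK against NK, with a median of -0.12. Chaperones and export factors had 1 higher and 6 lower of 13 (median -0.34) and 2 higher and 2 lower of 13 (median -0.10). Over all genes the medians were -0.33 and -0.40, so both lists lay near the bulk of genes for HSW against NW and above it for HSK against NK.

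Single members of these lists differed in direction. Ppib, a prolyl isomerase that folds procollagen, was higher under HySu in both genotypes, from 343 to 603 CPM in wild type (1.76-fold) and from 253 to 607 in knockout (2.40-fold). Sparc, a collagen-binding protein, was 1.71-fold higher in HSK than in NK, at 6970 against 4072 CPM. Serpinh1, the collagen chaperone HSP47, was lower in HSW, at 758.5 against 1292 CPM in NW (0.587). Sec24d, a coat protein of the vesicles that export procollagen, was at 0.470 of NW in HSW and 0.566 of NK in HSK.

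Enzymes that degrade collagen and their inhibitors had 2 called higher and 3 lower of 8 in HSW against NW, and in HSK against NK 2 higher and 3 lower of 9. Ctsk, the collagenolytic cathepsin K, was at 1.91 and 2.39 of the normoxia level and Mmp2, a gelatinase, at 1.73 and 1.68. Timp3, an inhibitor of metalloproteinases, was at 0.557 and 0.541, with 4010 CPM in NW and 2234 in HSW. Propeptide processing enzymes had 0 of 4 called in either comparison, and crosslinking enzymes 2 of 6 and 1 of 6 lower, Loxl2 in both (0.557 and 0.647).

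Partners of the basement membrane collagens, laminins, nidogens and proteoglycans, had 0 called higher and 6 lower of 11 and of 12 in fibroblasts in the 2 HySu comparisons, with medians of -0.75 and -0.67. Lamc1 was at 0.490 and 0.492, Hspg2 (perlecan) at 0.534 and 0.605 and Agrn at 0.395 and 0.410 of the normoxia level. Collagen receptors had 0 higher and 2 lower of 7 and 0 higher and 5 lower of 7, among them Adgrg6, a receptor for type IV collagen, at 0.438 and 0.235. In vascular endothelial cells the partners had 1 higher and 4 lower of 9 for HSW against NW and 1 higher and 3 lower of 7 for HSK against NK, where 6.24% and 9.66% of all genes were called higher and 12.7% and 19.2% lower. The higher one was Lama1, a laminin chain, at 40.8, 14.6, 114 and 82.5 CPM, while Lamc1 was at 0.460 of NW and 0.417 of NK. Fibril regulators were lower in the endothelium of HSW than of NW in 3 of 3 with enough UMIs, with Fn1, fibronectin, at 145.5 CPM in NW and 25.6 in HSW, where 12.7% of all genes were called lower. The NW endothelial sum is the one with the high macrophage and platelet markers given above (1761 CPM of alveolar macrophage markers against 257 to 468), and their part in this difference was not tested.

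Blood-derived classes added calls at low levels. In classical monocytes Col4a2, Col6a1 and Col11a2 were lower in HSW than in NW, 3 of 9 (26.7% of all genes lower), and Col1a2 and Col4a1 lower in HSK than in NK, 2 of 6 (33.6%). The same Col1a2 and Col4a1 were higher in NK than in NW, 2 of 10 (6.59% higher), at 1.97 [1.27, 3.04] and 1.65 [1.08, 2.53], and HSK against HSW had 0 of 5 called (9.08%). Col1a2 was also higher in NK than in NW in neutrophils, at 2.63 [1.18, 6.17], the 1 call of 3 (9.95%). In alveolar type 2 cells, alveolar macrophages, classical monocytes and neutrophils NK thus held more of this fibroblast transcript than NW. It was not called in T or NK cells, at 1.15 [0.627, 2.12], or in B or plasma cells, at 1.28 [0.695, 2.40]. Vascular endothelial cells had 6 Col1a2 UMIs of 391852 in NW and 3 of 684251 in NK. In fibroblasts themselves the NK level was the lower, at 0.885 [0.847, 0.925]. The cause of these differences was not tested. Non-classical monocytes had 3 of 10 higher in NK than in NW (7.37%), Col4a1, Col4a2 and Col7a1, and 1 of 8 lower in HSW than in NW (22.8%), Col1a2. For HSK against NK 0 of 4 (27%) and for HSK against HSW 0 of 1 (13.8%) were called there.

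Lymphocytes and neutrophils gave single calls on few UMIs. T or NK cells had Col1a2 higher in HSK than in NK at 3.20 [1.59, 6.20], 1 of 5 (8.2% of all genes higher), and higher than in HSW, the 1 collagen with enough UMIs there (6.45%). They had Col3a1 lower in HSW than in NW, 1 of 3 (27.5% lower), and Col4a2 higher in NK than in NW, 1 of 10 (9.29%). Col11a2 was higher in NK than in NW in B or plasma cells, 1 of 9 (7.82% higher), and in HSW than in NW in neutrophils, the 1 with enough UMIs (3.94%). B or plasma cells had 0 of 4 called for HSW against NW (34.1%) and 0 of 6 for HSK against NK (32.4%).

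Of the 43 genes, 12 share exon bases with another annotated gene, 9 of them on the opposite strand, and the strand setting of the counting is not given in the sources used here. For Col4a1 and Col4a2 the overlap is the 22 bases at their starts, for Col3a1 141 bases of a predicted microRNA gene and for Col4a3 563 bases of an opposite-strand gene, so reads there could belong to either gene.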

How the data were processed

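Single-cell RNA sequencing of 4 mouse lung libraries was used, 1 per group. The deposited matrices held whole-number counts of UMIs per gene and cell without normalization. Per the submitters' processing notes, the authors worked with STAR 2.6.1a, cutadapt 1.17, Scanpy and featureCounts 2.0.1 and the builds GRCm38 and mm10, in an order and with settings not given in the sources used here.

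Cells under 200 genes or over 20% mitochondrial UMIs were removed (1 cell of NK, 1 of HSW). All cells were clustered jointly in scanpy 1.11.5 (2000 variable genes without collagens, 40 components, 20 neighbours) and leidenalg 0.10.2 at resolution 1, and clusters were named from marker genes that hold no collagen. Scrublet called 4, 1, 8 and 30 cells in NW, NK, HSW and HSK, too few to have worked, so cells with UMIs of a second lineage were removed as well: 18.0, 23.1, 15.5 and 9.62% of cells, an unequal share of the groups. Marker lists, lineage lists and this rule went through several versions after the clusters were seen, with collagen UMIs by class in view. The last change, which moved 16 endothelial cells led by platelet genes to the unnamed cells, was made after collagen ratios had been seen. The members and gene lists were chosen with earlier results of these data known. The lists of enzymes, receptors and partners therefore give no independent support.

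UMIs were summed per class and library and divided by the class total (CPM). Levels carry exact Poisson, ratios conditional-binomial and shares Clopper-Pearson 95% intervals (scipy 1.17.1), which cover counting error only; a count of 0 was taken as a floor of 3 counts. List medians used log2 ratios with 0.5 UMIs added. The difference of 2 HySu ratios was taken on the log2 scale. Classes with at least 20 cells in both libraries of a pair were compared. Within fibroblasts and vascular endothelial cells each collagen with enough UMIs was considered, elsewhere the called ones, and levels were given for collagens holding at least 2% of the collagen UMIs of a class, at most 8. Pathway genes named were called genes. The ratio and call code was tested on simulated counts. Alternatives were TMM scaling (edgeR 4.0.16, R 4.3.3), totals without the 10 top genes, Scrublet calls alone, collagens among the variable genes, Leiden resolution 2, cells thinned to 4726 UMIs, the highest UMI minimum for all libraries, equal weights of subtypes, at least 5 UMIs, and a 2-fold limit; TMM for calls was added after seeing the data. Promoter windows came from RefSeq (GRCm38.p6) and gene models from GENCODE vM21.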

Additional observations from a re-analysis of the deposited data

Results flagged for a closer look

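Alveolar-like fibroblasts gave collagens whose ratios pointed in opposite directions in the 2 genotypes or the 2 treatments, each with an interval that excluded 1. For Col15a1 the HySu ratio was 0.226 in wild type (HSW against NW, 10 and 54 UMIs) and 1.78 in knockout (HSK against NK, 48 and 41 UMIs). Its knockout ratio was 0.538 in normoxia (NK against NW) and 4.24 under HySu (HSK against HSW). For Col12a1 the knockout ratio was 0.549 in normoxia and 2.52 under HySu, on 31, 24, 7 and 20 UMIs in NW, NK, HSW and HSK. With 1 library on each side, these differences were not tested. The 4 libraries are shared by both ways of comparing them, and the low count of HSW enters each of the 3 contrasts. Most alveolar-like cells of HSW and HSK belonged to the sub-cluster led by Saa3 and Thbs4, and most of NW and NK to those led by Thbs1 and by Colq.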

How the results depend on the processing

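No paired analysis was possible because each group had 1 library, and no replicate could be left out. The fibrillar ratio in fibroblasts stayed on its side of 1 under every alternative run: 1.39 (TMM scaling), 1.16 (without the 10 top genes), 1.07 (collagens among the variable genes), 1.07 (Leiden resolution 2) and 1.06 (highest UMI minimum) for HSW against NW; 1.91 (TMM), 1.53 (without the 10 top genes), 1.29 (thinned) and 1.28 (highest UMI minimum) for HSK against NK; 0.929 (thinned), 0.908 (highest UMI minimum) and 0.900 (equal weights) for NK against NW; 1.07 (thinned), 1.10 (highest UMI minimum) and 1.25 (equal weights) for HSK against HSW. The basement membrane ratio in fibroblasts was 1.08 (TMM) for HSW against NW; 1.34 (TMM), 0.936 (thinned) and 0.920 (highest UMI minimum) for HSK against NK; and 1.16 (highest UMI minimum) for NK against NW. The ratio of other collagens was 0.986 (TMM) and 0.732 (thinned) for HSW against NW; 1.10 (TMM), 0.877 (without the 10 top genes), 0.738 (thinned) and 0.746 (highest UMI minimum) for HSK against NK; and 1.10 (thinned) and 1.12 (highest UMI minimum) for NK against NW. In vascular endothelial cells the basement membrane ratio was 0.755 (thinned) for HSW against NW; 0.842 (TMM) and 1.02 (equal weights) for HSK against NK; and 0.834 (thinned) and 0.772 (equal weights) for NK against NW. In vascular endothelial cells, equal weights covered only the sub-clusters with enough cells in both libraries of a pair. Of 283 values for 37 ratios of single collagens and type IV, 276 stayed on their side of 1. The other 7 included 1 called value, Col15a1 in vascular endothelial cells for HSK against NK (1.11 with equal weights); the rest were type IV sums, at 1.21 (TMM) and 1.01 (without the 10 top genes) for HSW against NW and 0.964 (thinned) and 0.948 (highest UMI minimum) for HSK against NK in fibroblasts, and 1.04 (Leiden resolution 2) and 1.11 (highest UMI minimum) for NK against NW in vascular endothelial cells. Thinned or at the highest UMI minimum, the HSK/NK ratios of Col1a1 and Col3a1 in fibroblasts were 1.46 and 1.37, under the size for a call. At a 2-fold limit 3, 6, 1 and 2 collagens were called in fibroblasts for HSW/NW, HSK/NK, NK/NW and HSK/HSW, and 0 in vascular endothelial cells for HSK against NK; at 5 UMIs the NK/NW count was 4 and the endothelial HSK/NK count 3, and under TMM the latter was 0. The cause of these shifts was not tested. Scrublet calls alone left no vascular endothelial cluster with a name and so no value there. Few cells limit alveolar type 1, mural and lymphatic values.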
